A study of Mus musculus with 2931 samples.

Results

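Car4+ capillaries of the mouse lung were compared at postnatal day 7 between pups kept in hyperoxia (air with raised oxygen) and pups kept in normal air. The cells were taken by the deposited subtype label Car4+ capillaries, and the treatment by the labels of the same cells. They are 122 of the 2931 cells in the table, and of 332 Car4+ capillary cells of all ages.

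Lung capillaries consist of general capillary cells and of the larger cells known as aerocytes, which carry the enzyme carbonic anhydrase 4 (Car4) and lie flat against the air sacs where gas is exchanged. Aerocytes depend on VEGF signals from the epithelium through the receptor Kdr, and they also carry the endothelin receptor Ednrb and the peptide apelin. Raised oxygen in newborn mice damages DNA, activates the transcription factor p53 in many lung cells and slows the growth of air sacs, and is used as a model of the lung disease of preterm infants.

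The series measured single endothelial cells of distal mouse lung, sorted into plates, as reads per gene. At P7 there was 1 female and 1 male mouse in hyperoxia and 1 of each in normal air. Strain, oxygen fraction and duration of exposure are not given in the sources used here, and nothing states if each mouse name is 1 animal or a pool. No genetic change is named for any group, and the fit also used the Car4+ cells of the 2 mice each of P1 and P21 in normal air to estimate the spread. Below, paired values are always the female mouse first and the male mouse second.

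The normal mice gave 42 and 24 Car4+ cells, with 41626683 and 7733119 reads, and the hyperoxia mice 19 and 37 cells, with 11960551 and 29785889 reads. The normal male mouse stands apart. Of its reads, 61.5% came from 6 cells of another sort gate, named mesench in the labels, and from another sequencing run, against 13.7% from 5 such cells in the normal female mouse and 0 in the hyperoxia mice. Its 18 cells of the CD31 gate (CD31 is a surface protein of endothelium) held 2974752 reads, and 1 cell held 18.1% of all its reads. The CD31-gate cells of both male mice were sequenced in 1 run, while the female mice shared none, so run and treatment cannot be told apart in the female pair. Values for the CD31-gate cells alone are therefore given beside the results, and those of the male pair are a comparison within 1 run. After thinning every cell to 50000 reads, the median cell had 2217 and 2948 detected genes in normal air and 3047 and 2434 under hyperoxia. Detected genes thus differed between mice, and their part in the shares of cells with a read was not tested.

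The label held up against the markers. After thinning, Car4 was read in 100% and 95.8% of cells in normal air and 100% and 97.3% under hyperoxia. Pooled over cells, Car4 had 4876 and 11496 normalized CPM in normal air and 3478 and 5081 under hyperoxia. Normalized CPM are counts scaled to an equal total of reads, with library sizes adjusted by TMM (trimmed mean of M-values). This scaling was done separately for all Car4+ cells, for CD31-gate Car4+ cells and for Car4- cells. Levels from different sets are therefore not strictly on a common scale. Levels of Car4 ranged from 171 to 424 normalized CPM in the Car4- capillaries of the same mice. How the deposited labels were made is not given in the sources used here, and these markers, Car4 among them, may have entered them.

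Reads were summed per mouse and tested with edgeR, with 0.05 as the limit for the adjusted p. No gene passed, that is 0 of 12284 tested (0%) were called. At an unadjusted p under 0.05 there were 280 genes higher (2.28%) and 477 genes lower (3.88%) under hyperoxia. On the same sums 265 genes were called by DESeq2, and limma on the mean CPM over cells, a different input, called 0. Both hyperoxia mice lay above both normal mice for 1967 genes (16%) and below them for 1970 genes (16%), which is the background for the counts of non-overlapping mice below. On plain CPM without TMM these counts were 2435 and 1527, so the balance of higher and lower genes depends on the scaling. Of all genes tested, 5827 had a log2 change above 0 and 6457 below, and the median was -0.06. Directions below describe these 4 mice and are not calls.

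Targets of p53 had higher levels under hyperoxia as a list. Of 22 genes tested, 20 had a log2 change above 0, the median was 1.24, and 14 had both hyperoxia mice above both normal mice, against 1 with both below. With an unadjusted p under 0.05 there were 3 higher genes and 0 lower. That p53 targets are higher was known from earlier results on these data, so the list is no independent evidence. In CD31-gate cells alone 19 of 22 were above 0, with a median of 1.03, and 12 were higher in both mice, so the direction did not rest on the cells of the other gate. Without the normal male mouse 17 of 22 were above 0, with a median of 1.27.

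Cdkn1a encodes p21, the cyclin-dependent kinase inhibitor that halts the cell cycle after p53 activation (chromosome 17, 29090976 to 29100727, GENCODE M21 on GRCm38). It had 945 and 1233 normalized CPM in normal air and 2481 and 4263 under hyperoxia. Both hyperoxia mice lay above both normal mice (log2 change 1.63, SE 0.65, edgeR unadjusted p = 0.0273, adjusted p = 0.731). The normal male mouse had 477 normalized CPM in its CD31-gate cells, and with these cells alone the log2 change was 2.31. Single cells show the difference more plainly than the sums: the median cell had 157 and 316 CPM in normal air and 3155 and 4208 CPM under hyperoxia. Single cells of the normal mice reached up to 10970 and 6894 CPM, so the cells of the groups overlapped. Reads of Cdkn1a were found after thinning in 61.9% and 66.7% of cells in normal air and 89.5% and 97.3% under hyperoxia.

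Other ages put the normal P7 level of Cdkn1a in context. In normal air it was 901 and 5196 normalized CPM at P1 and 3001 and 1978 at P21. The hyperoxia values therefore overlapped those of untreated mice of other ages, and the highest value of all 8 mice was that of the P1 male mouse.

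**Figure D1:**
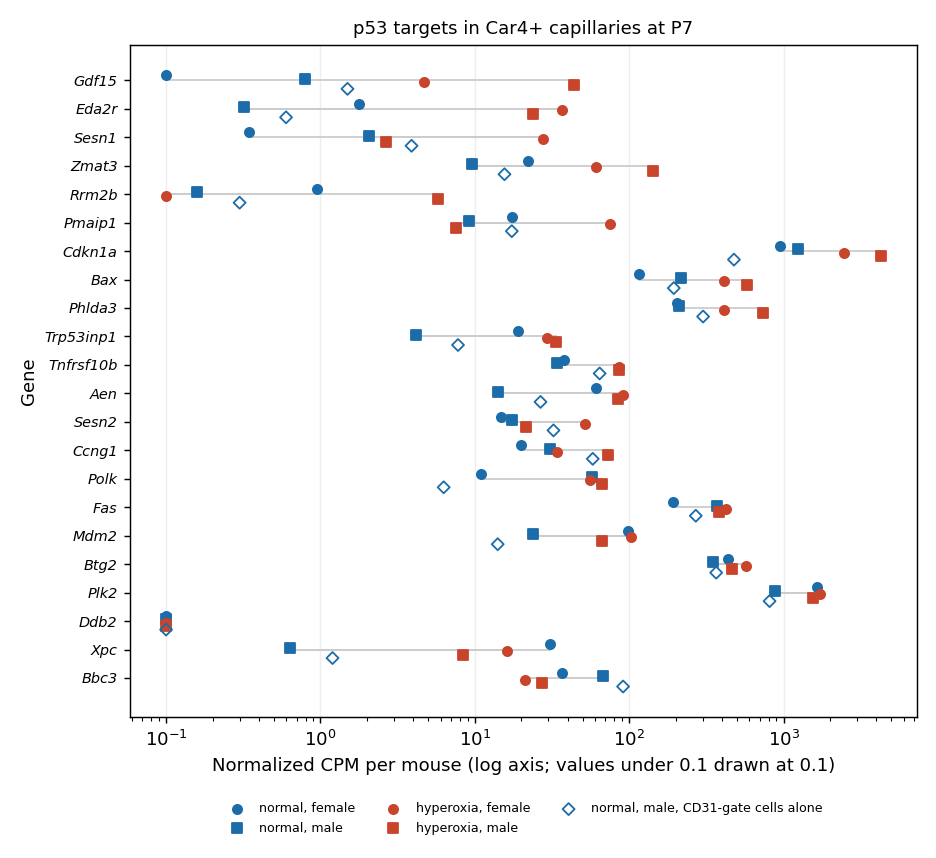
Normalized CPM (horizontal log axis) of the 22 p53 targets tested (vertical axis, ordered by log2 change) in each P7 mouse, in blue for normal air and red for hyperoxia, with circles for female and squares for male mice; open diamonds are the CD31-gate cells of the normal male mouse. The red points of Cdkn1a, Bax, Phlda3, Zmat3 and Eda2r lie to the right of all blue points, while those of Mdm2 and Plk2 are mixed with them and those of Bbc3 lie to the left.

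Bax, the pore-forming protein that starts mitochondrial apoptosis, had 116 and 218 normalized CPM in normal air and 409 and 576 under hyperoxia, with no overlap between the groups (log2 change 1.56, SE 0.55, edgeR unadjusted p = 0.0150, adjusted p = 0.731). Phlda3, an inhibitor of the kinase Akt, had 205 and 211 normalized CPM in normal air and 413 and 739 under hyperoxia, again with no overlap (log2 change 1.47, SE 0.52, edgeR unadjusted p = 0.0145, adjusted p = 0.731). In the male pair within 1 run these genes kept their direction, from 195 to 599 normalized CPM for Bax and from 301 to 768 for Phlda3. Bax was read after thinning in 54.8% and 75% of cells in normal air and 89.5% and 86.5% under hyperoxia.

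The promoters of the leading targets are shown because p53 binds DNA directly. The 250 bases before each start were taken from RefSeq (GRCm38.p6), with every match to the p53 consensus decamer in capitals. This consensus reads the same on both strands. For Cdkn1a the sequence before its first listed start lies on the plus strand at chr17:29090729-29090978 and holds 2 decamers with 12 bases between them:
Cdkn1a: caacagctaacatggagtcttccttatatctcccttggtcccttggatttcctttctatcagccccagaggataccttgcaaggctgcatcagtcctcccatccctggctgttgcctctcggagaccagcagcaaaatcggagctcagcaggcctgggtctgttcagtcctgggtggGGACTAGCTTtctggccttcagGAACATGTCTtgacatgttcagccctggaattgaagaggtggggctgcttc
For Bax it lies on the minus strand at chr7:45466899-45467148 and holds 1 decamer:
Bax: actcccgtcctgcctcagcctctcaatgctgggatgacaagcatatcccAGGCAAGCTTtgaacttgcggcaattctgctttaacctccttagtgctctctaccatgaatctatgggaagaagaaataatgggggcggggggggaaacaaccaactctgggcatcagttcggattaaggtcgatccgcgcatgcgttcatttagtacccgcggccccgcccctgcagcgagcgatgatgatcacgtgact

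The window before a second listed start of Cdkn1a and that of Phlda3 held no match. Of all 32851 windows of this length, 7.13% held a decamer and 0.0639% held a pair with 0 to 13 bases between them. For 15 of the 22 p53 targets 22 windows were found, of which 7 (31.8%), each of a different gene, held a decamer and that of Cdkn1a alone held a pair. A match is a description of the letters and not evidence of binding.

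Several p53 targets with fewer reads had the same direction. Zmat3, an RNA-binding regulator of splicing, had 22.1 and 9.53 normalized CPM in normal air and 61 and 142 under hyperoxia (log2 change 2.68, edgeR adjusted p = 0.744). Eda2r, a receptor of the TNF family, had 1.77 and 0.318 normalized CPM in normal air and 36.9 and 23.7 under hyperoxia (log2 change 4.82, edgeR adjusted p = 0.731). The death receptors Fas and Tnfrsf10b were also higher in both hyperoxia mice, with log2 changes of 0.52 and 1.26, of which that of Fas was 0.23 without the normal female and 1.06 without the normal male mouse. Not every target did this. Mdm2, the ubiquitin ligase that degrades p53, had 98.5 and 23.8 normalized CPM in normal air and 103 and 66.2 under hyperoxia, and these values overlapped. Bbc3 (Puma), a trigger of apoptosis, was lower in both hyperoxia mice, with 37 and 68 normalized CPM in normal air and 21.3 and 27.3 under hyperoxia (log2 change -1.11, edgeR adjusted p = 0.919).

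Survival and cell cycle genes were tested in lists of their own. Bcl2l1, which encodes the survival protein Bcl-xL, had 65.1 and 24 normalized CPM in normal air and 204 and 213 under hyperoxia, with no overlap between the groups (log2 change 2.22, SE 0.69, edgeR unadjusted p = 0.00670, adjusted p = 0.731). It was read after thinning in 26.2% and 20.8% of cells in normal air and 63.2% and 51.4% under hyperoxia, and in CD31-gate cells alone its log2 change was 1.88. Of 19 apoptosis regulators tested, 8 were above 0 and the median was -0.05, so the list as a whole stood near the median of all genes. Only Bax and Bcl2l1 had an unadjusted p under 0.05 with edgeR. Cdkn1b (p27), another kinase inhibitor, had 21.1 and 20.7 normalized CPM in normal air and 93.7 and 49.1 under hyperoxia (log2 change 1.77, edgeR adjusted p = 0.731), also without overlap.

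Transcripts of cell division were low in every mouse. The deposited labels hold a separate class, Proliferative EC, so dividing cells may have been labelled out of the Car4+ class beforehand. The part of this in the levels was not tested. The 23 proliferation genes summed to 204 and 172 normalized CPM in normal air and 176 and 186 under hyperoxia. Of these, 21 were tested, 14 had a log2 change below 0 and the median was -0.66. In CD31-gate cells 4 of 20 were above 0, the median was -1.12 and 2 were lower at an unadjusted edgeR p under 0.05. Without the normal male mouse 10 of 21 were above 0 and the median was 0, and without the male hyperoxia mouse it was -4.09. Over all cells 0 genes were higher and 1 was lower at an unadjusted edgeR p under 0.05, and Mki67 had at most 1.59 normalized CPM.

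Markers of aerocytes were lower as a list. Of 12 genes tested, 11 had a log2 change below 0, with a median of -0.83. In both hyperoxia mice 7 were lower and 1 was higher than in both normal mice, and 3 had an unadjusted edgeR p under 0.05, all lower. In CD31-gate cells alone 10 of 12 were below 0, 8 were lower in both mice, 1 had an unadjusted p under 0.05 and the median was -0.46. Without the normal male mouse 9 of 12 were below 0 and the median was -0.41. The direction was thus kept, and its size was smaller by more than 1.5 times without the cells or the mouse in doubt.

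Emp2, a tetraspan membrane protein, showed the smallest p of these markers. It had 3263 and 5403 normalized CPM in normal air and 1629 and 1858 under hyperoxia without overlap (log2 change -1.31, SE 0.41, edgeR unadjusted p = 0.00684, adjusted p = 0.731). In CD31-gate cells the normal mice had 3492 and 4512 normalized CPM and the log2 change was -1.14. Its reads were found in nearly all cells, and the median cell had 3103 and 4832 CPM in normal air and 1740 and 2161 CPM under hyperoxia.

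Fibin, a secreted protein known as an aerocyte marker, had 850.4 and 760 normalized CPM in normal air and 386 and 311 under hyperoxia (log2 change -1.21, SE 0.50, edgeR unadjusted p = 0.0330, adjusted p = 0.731). After thinning it was read in 81% and 58.3% of cells in normal air and 42.1% and 45.9% under hyperoxia, so fewer hyperoxia cells than normal cells showed it in both pairs. Prx, the scaffold protein periaxin, had 654 and 1061 normalized CPM in normal air and 325 and 426 under hyperoxia (log2 change -1.19, SE 0.50, edgeR unadjusted p = 0.0322, adjusted p = 0.731). Neither gene overlapped between the groups.

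Receptors and ligands of aerocytes had smaller differences. Ednrb, the endothelin receptor, had 2439 and 3711 normalized CPM in normal air and 1476 and 2005 under hyperoxia (log2 change -0.82, edgeR adjusted p = 0.731). Kitl, the ligand of the receptor Kit, had 1288 and 1400.1 normalized CPM in normal air and 789.6 and 716 under hyperoxia (log2 change -0.84, edgeR adjusted p = 0.731), and Sirpa, an inhibitory receptor that binds CD47, had a log2 change of -0.97. All were lower in both hyperoxia mice. Kdr, the main VEGF receptor, had 2440.2 and 3707 normalized CPM in normal air and 1825 and 2023 under hyperoxia (log2 change -0.68, edgeR adjusted p = 0.768), but with CD31-gate cells alone its log2 change was only -0.17. Car4 itself changed in the same way without the cells of the other gate and run, with a log2 change of -0.94 over all cells and -0.12 in CD31-gate cells. Apln, which encodes apelin, was the exception and was higher in both hyperoxia mice, with 614 and 558 normalized CPM in normal air and 845 and 721 under hyperoxia (log2 change 0.42, edgeR adjusted p = 0.946).

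**Figure D2:**
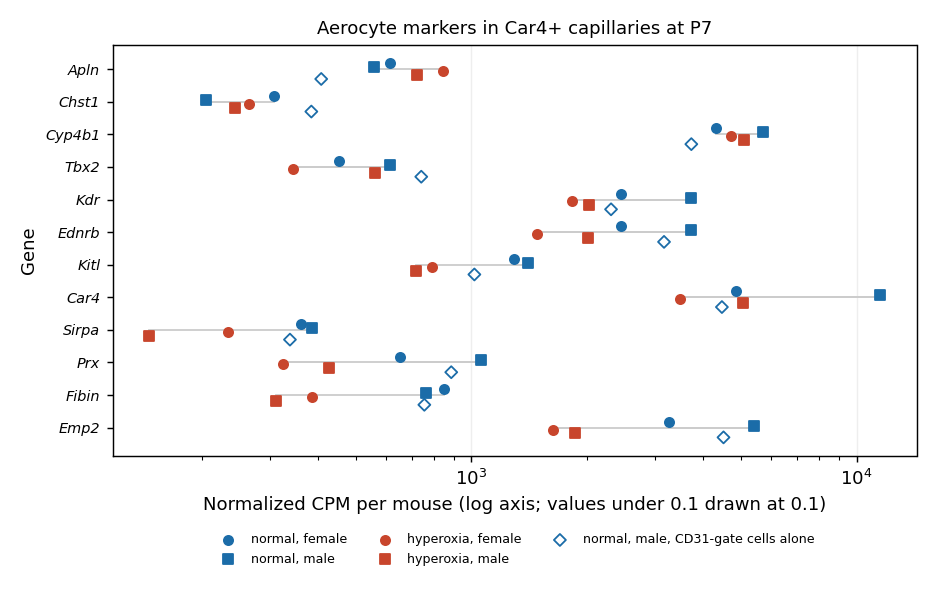
Normalized CPM (horizontal log axis) of the 12 aerocyte markers (vertical axis, ordered by log2 change) in each P7 mouse, in blue for normal air and red for hyperoxia, with circles for female and squares for male mice; open diamonds are the CD31-gate cells of the normal male mouse. For Emp2, Fibin, Prx, Sirpa, Kitl, Ednrb and Kdr both red points lie to the left of both blue points, and for Apln to the right.

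Markers of general capillary cells and of all endothelium gave the setting for this. Of 10 general capillary markers, 8 were above 0, with a median of 0.83, 2 were higher and 1 was lower without overlap, and 1 had an unadjusted edgeR p under 0.05. The median was 0.49 without the female and 0.32 without the male hyperoxia mouse. The gene with the small p was Plvap, the diaphragm protein of fenestrated and immature vessels. It had 4.92 and 0 normalized CPM in normal air and 67.6 and 85.2 under hyperoxia (log2 change 4.88, SE 1.75, edgeR unadjusted p = 0.0157, adjusted p = 0.731), and was read after thinning in 2.38% and 0% of cells in normal air and 21.1% and 21.6% under hyperoxia. Aplnr, the apelin receptor of general capillary cells, stayed at or under 19.4 normalized CPM in all 4 mice. The 12 pan-endothelial genes had a median of -0.07, with 4 above 0 and none at an unadjusted p under 0.05. Among them Pecam1, which encodes CD31, was lower in both hyperoxia mice (log2 change -0.78), but its change in CD31-gate cells alone was -0.08.

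Whether hyperoxia acted differently on Car4+ capillaries than on the 607 Car4- capillary cells of the same mice was tested as an interaction. The Car4- class joins the deposited labels Early and Late Car4- capillaries. Late cells were 44 of 206 in the normal female mouse and 2 of 116 in the normal male mouse. Under hyperoxia they were 2 of 153 and 6 of 132. edgeR called 0 of 14711 genes (0%), while 543 (3.69%) lay under 0.05 before adjustment. With DESeq2 the calls were 243, and with limma on the mean CPM over cells 0. With every cell thinned to 50000 reads edgeR called 31, of which 20 were more positive and 11 more negative in Car4+ cells. With Early Car4- cells alone edgeR called 0 of 14229 genes, and 169 lay under 0.05 before adjustment. In CD31-gate cells these counts were 0 of 14468 and 389. Among the p53 targets 2 of 22 had an unadjusted p under 0.05, and among the aerocyte markers 5 of 12. The p53 list was also higher in Car4- cells. There 19 of 22 had a log2 change above 0 with a median of 1.08, against 20 and 1.24 in Car4+ cells.

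Cdkn1a had the smallest unadjusted p of the genes named for this contrast. In Car4- cells it had 205 and 202 normalized CPM in normal air and 2184 and 3284 under hyperoxia. Under hyperoxia the Car4+ mice had 2481 and 4263, close to the Car4- values. In normal air both Car4+ values were above both Car4- values, with each class scaled on its own. The log2 change was 3.75 in Car4- and 1.63 in Car4+ cells. The difference was -2.12 (edgeR unadjusted p = 4.2e-05, adjusted p = 0.382). It was negative in all 15 alternatives, from -2.33 to -0.97, and was called in 3 of them (DESeq2, no filter and thinned cells). The gene was picked for a small p and for mice whose class differences do not overlap. The alternatives also reuse the same P7 reads, so the kept sign was largely fixed in advance. For Bax the difference was -0.37 and for Phlda3 -0.77, with edgeR adjusted p of 1 for each.

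Cyp4b1, a cytochrome P450 enzyme and aerocyte marker, differed in the same way. In Car4+ cells it had 4322 and 5723 normalized CPM in normal air and 4727 and 5104 under hyperoxia, with overlapping groups and a log2 change of -0.03 that changed sign with the processing. In Car4- cells it had 507 and 450.3 normalized CPM in normal air and 1700.2 and 1554 under hyperoxia. The difference between classes was -1.78 (edgeR unadjusted p = 7.8e-05, adjusted p = 0.384). Apelin, Kdr and Car4 had differences of -1.53, -1.32 and -1.18, each with an unadjusted p under 0.05. These differences include the cells of the other gate. In CD31-gate Car4+ cells the log2 changes were 0.69 for apelin, -0.17 for Kdr and -0.12 for Car4. Over all Car4+ cells they were 0.42, -0.68 and -0.94. Over the whole marker list the median log2 change in Car4- cells was 0.28, with 8 of 12 above 0. Emp2, in contrast, was lower in both classes, with a log2 change of -1.06 in Car4- cells and a difference of -0.14.

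**Figure D3:**
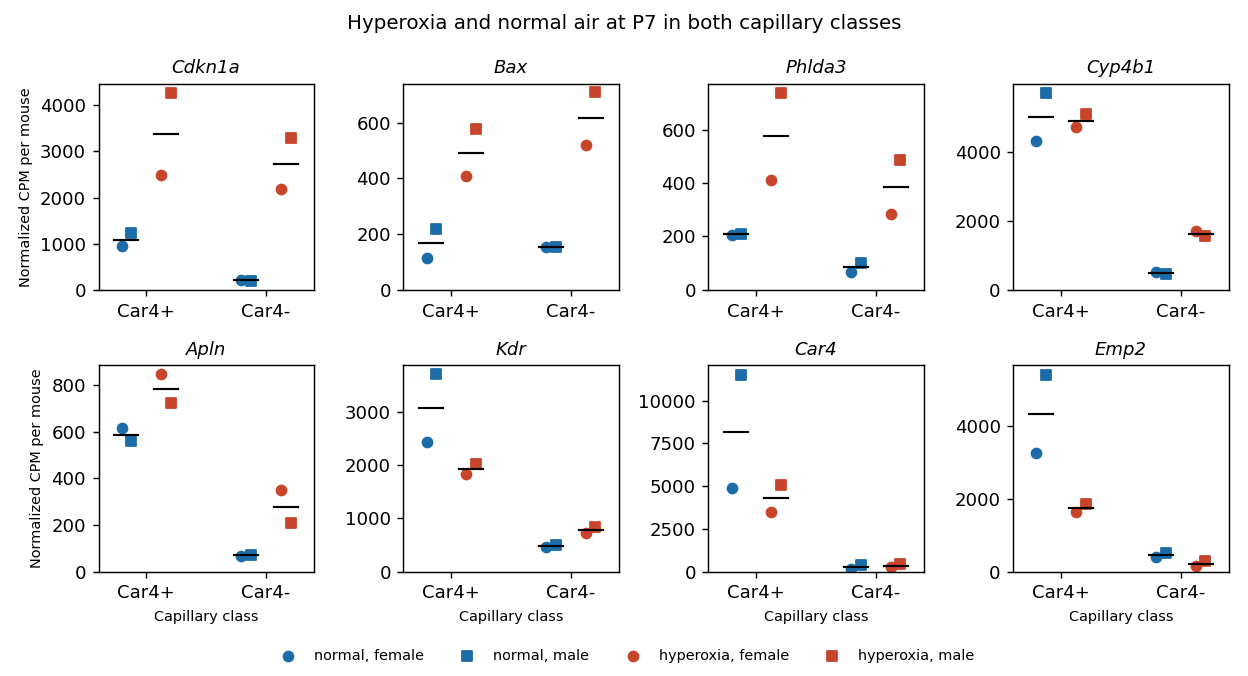
Normalized CPM per mouse (vertical linear axes from 0) of 8 genes in Car4+ and Car4- capillaries (horizontal axis) at P7, blue for normal air and red for hyperoxia, circles for female and squares for male mice, with black bars at the mean of each pair. Cdkn1a starts higher in Car4+ than in Car4- cells and ends at a similar level under hyperoxia, and Cyp4b1 and Apln are higher under hyperoxia in Car4- cells. Each class was scaled on its own.

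The naming rule also gave Peg3, an imprinted zinc finger gene, Idh3b, Bccip, Mospd2 and Eif2b1 as more positive in Car4+ than in Car4- cells. Peg3 had 15 and 4.13 normalized CPM in normal air and 84.9 and 82.4 under hyperoxia in Car4+ cells. In Car4- cells it had 596 and 317 normalized CPM in normal air and 819 and 701 under hyperoxia, a difference of 2.58 (edgeR adjusted p = 1). Among Car4+ cells 1 cell held 52.1% and 88.5% of the Peg3 reads in normal air and 84.1% and 32.5% under hyperoxia. Idh3b, Bccip, Mospd2 and Eif2b1 had differences between 2.03 and 3.02. As more negative it gave, beside Cdkn1a and Cyp4b1, Gpx7 (-4.18), Slc16a9 (-3.59) and Ly6a (-1.59), which encodes the surface protein Sca-1. Ly6a was overlapping in Car4+ cells, with 2751 and 5108 normalized CPM in normal air and 1569.7 and 2988 under hyperoxia, and higher under hyperoxia in Car4- cells, with 442 and 644 normalized CPM in normal air and 781 and 1101 under hyperoxia.

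The gene with the smallest p over the named genes was Gpx3 (chromosome 11, 54902453 to 54910377), a secreted glutathione peroxidase. It had 69.7 and 53.7 normalized CPM in normal air and 636 and 545 under hyperoxia. Both hyperoxia mice lay far above both normal mice (log2 change 3.26, SE 0.53, edgeR unadjusted p = 4.2e-05, adjusted p = 0.301). The difference was as large in CD31-gate cells alone (log2 change 3.34), and the male pair within 1 run had 48.5 and 567 normalized CPM.

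Gpx3 was also read in more cells. After thinning it was found in 21.4% and 20.8% of cells in normal air and 84.2% and 51.4% under hyperoxia, and the median cell had 0 CPM in both normal mice and 364 and 236 CPM in the hyperoxia mice. Detected genes per thinned cell were higher under hyperoxia in the female pair and lower in the male pair, and their part in these shares was not tested. The gene kept its direction in all 16 alternatives, with log2 changes from 3.02 to 3.56, and was called in 4 of them (DESeq2, no filter, without the P21 female and without the P21 male mouse). Because of the naming rule and the shared P7 reads, this kept direction was largely fixed in advance. At P1 Gpx3 had 258 and 373 normalized CPM and at P21 143 and 179, so the hyperoxia mice had the highest values of the 8 mice. In Car4- cells it had 14.2 and 16.7 normalized CPM in normal air and 66.7 and 78.5 under hyperoxia, at a lower level.

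**Figure D4:**
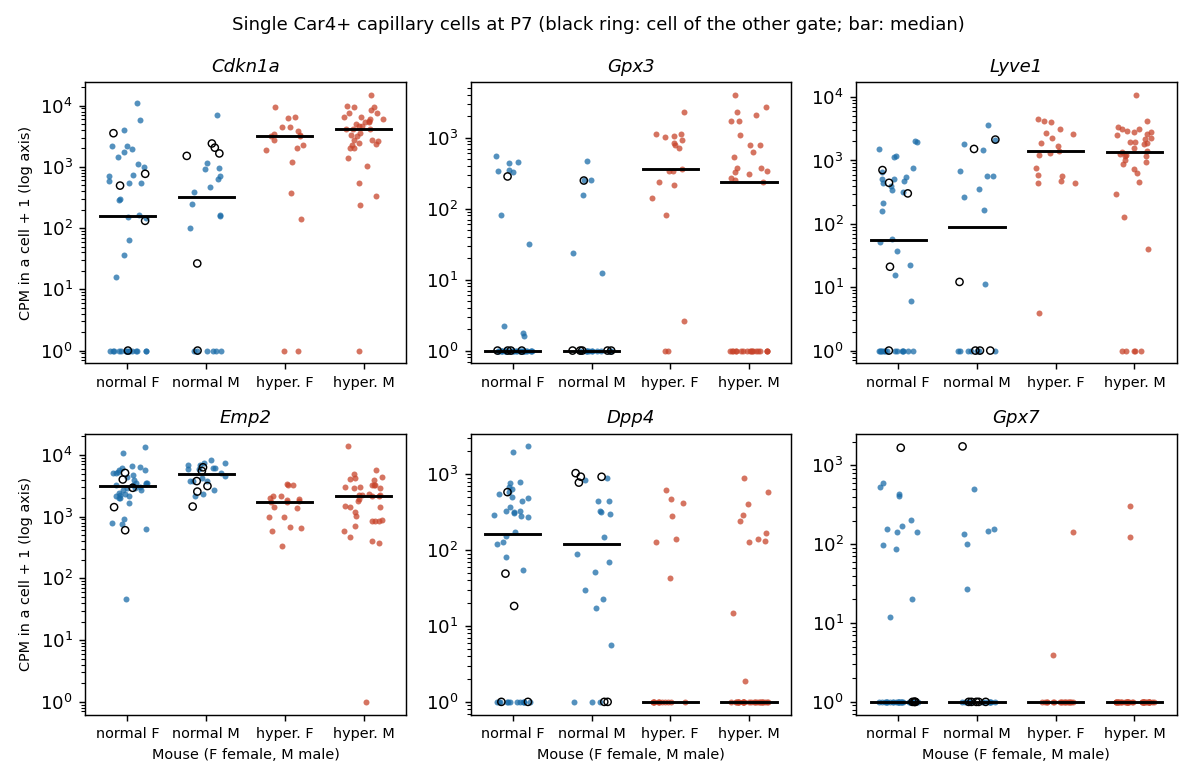
CPM plus 1 (vertical log axes) of 6 genes in each of the 122 single Car4+ cells, by mouse on the horizontal axis, blue for normal air and red for hyperoxia; black rings are cells of the mesench gate and black bars the medians over cells. Medians of Cdkn1a, Gpx3 and Lyve1 are higher in both hyperoxia mice, those of Emp2 and Dpp4 lower, and Gpx7 is read in 2 cells of each hyperoxia mouse.

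Other antioxidant genes were mixed. Of 17 tested, 11 were above 0, the median was 0.59, and 4 higher and 1 lower had an unadjusted edgeR p under 0.05. Without the female hyperoxia mouse 7 of 18 were above 0 with a median of 0, and without the male hyperoxia mouse 9 of 18 with a median of 0.03. Txn2, the mitochondrial thioredoxin, had 100.4 and 73.1 normalized CPM in normal air and 314 and 254 under hyperoxia (log2 change 1.71, SE 0.54, edgeR unadjusted p = 0.00749, adjusted p = 0.731). Gpx1, the cytosolic glutathione peroxidase, had 78.6 and 75 normalized CPM in normal air and 173 and 203 under hyperoxia (log2 change 1.30, SE 0.56, edgeR unadjusted p = 0.0377, adjusted p = 0.731). Neither overlapped between the groups. A further gene of the higher 4, Gsta4, had reads in 1 hyperoxia mouse alone. Gstm1, the lower gene, had 439 and 2766 normalized CPM in normal air and 429 and 567 under hyperoxia, and only 323 normalized CPM in the CD31-gate cells of the normal male mouse, where its log2 change was 0.40.

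Targets of Nrf2, the transcription factor of the oxidant response, showed no common direction. Of 13 tested, 6 were above 0 and 7 below, with a median of -0.06, and 0 had an unadjusted edgeR p under 0.05. Hmox1, which encodes heme oxygenase 1, was 1 of the 2 genes higher without overlap, with 5.96 and 18.3 normalized CPM in normal air and 57.2 and 67.9 under hyperoxia (log2 change 2.37, edgeR adjusted p = 0.731). Nqo1, Gclc and Srxn1 were at or under 33.1 normalized CPM in all mice.

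Over all genes, the naming rule took 10 genes in each direction by the smallest unadjusted p. They came from 469 higher and 428 lower genes that met its conditions of no overlap, level, detection and run. All 20 were taken for this contrast and for the same direction in the male pair, so their values are a description. The higher genes were Gpx3, Commd3, Bccip, Adgrg1, Itpripl1, Filip1l, Bcl2l1, Tm4sf1, Idh3b and Txn2. Commd3, a subunit of the endosomal Commander complex, had 174 and 90.6 normalized CPM in normal air and 596 and 608 under hyperoxia (log2 change 2.19, edgeR adjusted p = 0.731). Bccip, a protein that binds BRCA2 and p21, had 35.2 and 24.6 normalized CPM in normal air and 215 and 173 under hyperoxia (log2 change 2.69, edgeR adjusted p = 0.731). By the rule, neither overlapped between the groups.

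Adgrg1, the adhesion receptor GPR56, had 14.5 and 8.58 normalized CPM in normal air and 147 and 114 under hyperoxia. After thinning it was read in 9.52% and 16.7% of cells in normal air and 57.9% and 24.3% under hyperoxia. Tm4sf1, a membrane protein abundant in endothelium, had 84.2 and 42.9 normalized CPM in normal air and 116 and 610.5 under hyperoxia, and without the male hyperoxia mouse its log2 change was 0.89, against 2.51 with it. Idh3b, a subunit of mitochondrial isocitrate dehydrogenase, had 33.1 and 74.3 normalized CPM in normal air and 242 and 183 under hyperoxia, but 140.1 in the CD31-gate cells of the normal male mouse, which brought its log2 change from 1.98 to 1.30. Filip1l, a protein that binds filamin, had 66.7 and 21 normalized CPM in normal air and 146 and 296 under hyperoxia, and Itpripl1 45.9 and 40.0 normalized CPM in normal air and 137 and 385 under hyperoxia. In CD31-gate cells, whose male pair entered the naming rule, the log2 changes of these 10 genes ran from 1.21 to 3.34.

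The lower genes were Gpx7, Slc16a9, S100a1, Dpp4, Tpgs2, Mia2, Ypel3, Rsrp1, Yme1l1 and Cav2. Dpp4, a surface peptidase also known as CD26, was read in most normal cells and in fewer hyperoxia cells. It had 310.1 and 409 normalized CPM in normal air and 71.3 and 68.4 under hyperoxia (log2 change -2.36, SE 0.51, edgeR unadjusted p = 0.000480, adjusted p = 0.731), and 345 and 189 normalized CPM in the CD31-gate cells of the normal mice. Its reads were found in 28 of 42 and 19 of 24 normal cells and in 7 of 19 and 11 of 37 hyperoxia cells. Slc16a9, a transporter of the monocarboxylate family, had 245 and 291 normalized CPM in normal air and 33.3 and 40.8 under hyperoxia (log2 change -2.85, SE 0.54, edgeR unadjusted p = 0.000173, adjusted p = 0.601), with 124 in the CD31-gate cells of the normal male mouse.

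Gpx7 (chromosome 4, 108400390 to 108406961), a peroxidase of the endoplasmic reticulum, had 107 and 409.9 normalized CPM in normal air and 5.14 and 7.91 under hyperoxia, the smallest p of the lower genes (log2 change -5.30, SE 0.88, edgeR unadjusted p = 4.9e-05, adjusted p = 0.301). It rested on few cells: 1 cell held 94.8% of its reads in the normal male mouse, whose CD31-gate cells had 40.4 normalized CPM. With CD31-gate cells alone its log2 change was -3.14. It was called in 5 of 16 alternatives (DESeq2, no filter, and without the P7 normal female, the P21 female or the P21 male mouse). In the same mouse 1 cell held 90.5% of the reads of Mia2, a protein of export from the endoplasmic reticulum, 71.2% of those of Ypel3 and 70.2% of those of Slc16a9. S100a1, a calcium-binding protein, had 68.5 normalized CPM in its CD31-gate cells against 626 over all its cells, on separate scalings. Those CD31-gate cells held 229 of the 3943 S100a1 reads of this mouse. The sizes of these changes thus depend on few cells and on whether cells of the other gate, also of another run, are included. In CD31-gate cells, where the rule largely fixed the direction, the log2 changes of the 10 genes ran from -3.14 to -1.07.

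**Figure D5:**
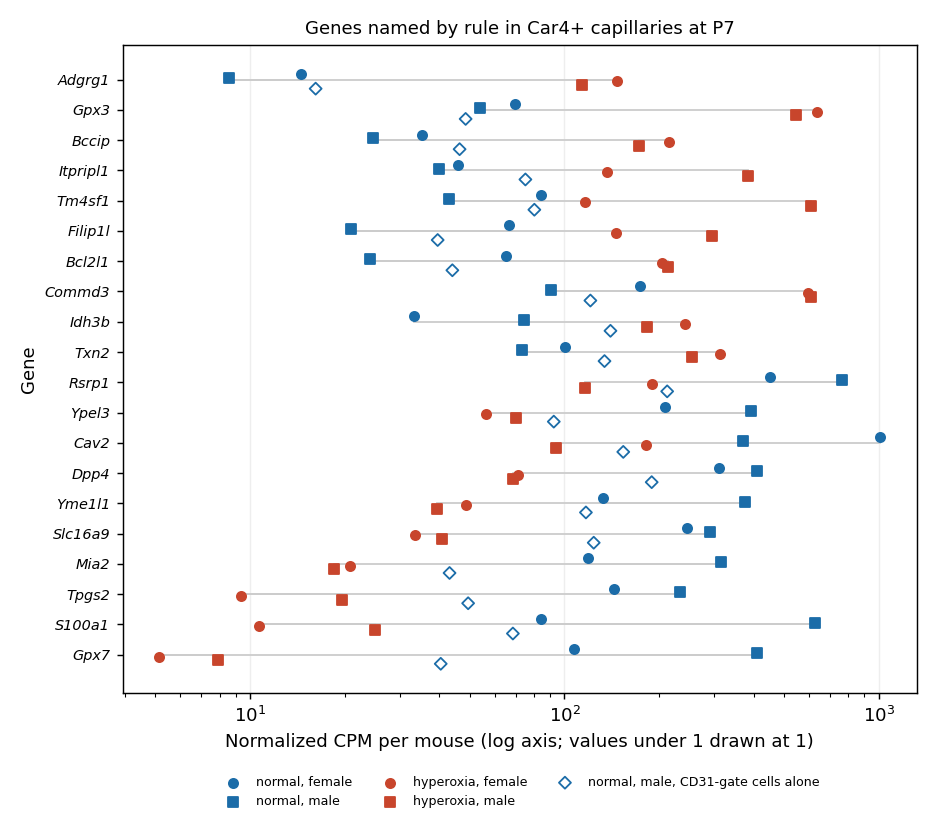
Normalized CPM (horizontal log axis) of the 20 genes named by the rule (vertical axis, ordered by log2 change) in each P7 mouse, blue for normal air and red for hyperoxia, circles for female and squares for male mice; open diamonds are the CD31-gate cells of the normal male mouse. By the rule the red and blue points do not overlap, and for Gpx7 and S100a1 the open diamond lies far to the left of the blue square. Open diamonds were scaled separately from the filled points.

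Genes of the vessel wall and of its signals were read in lists. Cav2, a coat protein of caveolae, had 1012 and 369 normalized CPM in normal air and 182 and 94.2 under hyperoxia (log2 change -2.33, SE 0.67, edgeR unadjusted p = 0.00446, adjusted p = 0.731). The normal mice also differed from each other, with 154 normalized CPM in the CD31-gate cells of the male mouse, under the level of the female hyperoxia mouse, and without the normal female mouse the log2 change was -1.33. Aqp1, a water channel, had 558 and 475 normalized CPM in normal air and 286 and 262 under hyperoxia (log2 change -0.91, edgeR adjusted p = 0.731), and in CD31-gate cells its log2 change was -1.15. Both were lower in both hyperoxia mice. The list of lipid, water and gas handling genes had 3 of 10 genes above 0 and a median of -0.75. Without the normal female mouse 5 of 10 were above 0 and the median was 0.02, and without the male hyperoxia mouse the median was -0.24, so the list had no direction that held without each mouse.

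Of 9 genes for VEGF ligands and receptors, 4 were above 0 and 1 had an unadjusted edgeR p under 0.05. This was Nrp1, the VEGF co-receptor neuropilin 1, with 2063 and 2559 normalized CPM in normal air and 1243 and 1065 under hyperoxia (log2 change -1.00, SE 0.43, edgeR unadjusted p = 0.0379, adjusted p = 0.731). It did not overlap between the groups, and its change in CD31-gate cells was -0.56. The receptors Flt1 and Flt4 overlapped.

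Calcrl, the receptor subunit that binds adrenomedullin, was lower in both hyperoxia mice, with 1520.2 and 1722 normalized CPM in normal air and 321 and 892 under hyperoxia (log2 change -1.42, SE 0.52, edgeR unadjusted p = 0.0180, adjusted p = 0.731), and 1504 and 1941 normalized CPM in the CD31-gate cells of the normal mice. Its log2 change was -0.79 without the female and -2.30 without the male hyperoxia mouse. Its partner Ramp2 overlapped. Ramp3, another partner, had 21.5 and 109 normalized CPM in normal air and 2.98 and 0.218 under hyperoxia (log2 change -5.38, edgeR adjusted p = 0.731), but 2.10 in the CD31-gate cells of the normal male mouse, which overlaps the hyperoxia mice. Adm, which encodes adrenomedullin, had 0 reads in both normal mice and 24.8 and 6.44 normalized CPM in the hyperoxia mice, in 1 thinned cell of each.

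Of 14 BMP and TGF-beta genes, 5 were above 0. Tgfbr2, the type II TGF-beta receptor, had 376 and 576 normalized CPM in normal air and 239.7 and 96.7 under hyperoxia (log2 change -1.50, SE 0.57, edgeR unadjusted p = 0.0207, adjusted p = 0.731). In CD31-gate cells the normal male mouse had 225, under the female hyperoxia mouse, so that the groups overlapped there. The 10 Notch genes had a median of 0.09 and 0 at an unadjusted edgeR p under 0.05.

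Of 14 basement membrane and integrin genes, 10 were above 0, 4 were higher and 2 lower without overlap, and 1 had an unadjusted edgeR p under 0.05. The median was 0.35, and ran from 0.07 without the male hyperoxia mouse to 0.83 without the normal female mouse. Itga6, an integrin chain that binds laminin, was nearly absent in normal air, with 0.920 and 0 normalized CPM in normal air and 72 and 30.3 under hyperoxia (log2 change 6.66, SE 2.33, edgeR unadjusted p = 0.0138, adjusted p = 0.731). Sparc, a secreted protein that binds collagen, was higher in both hyperoxia mice, with 1617 and 3486 normalized CPM in normal air and 3912 and 4144 under hyperoxia (log2 change 0.66, edgeR adjusted p = 0.824), and its change was 1.16 in CD31-gate cells. Serpine2, an inhibitor of serine proteases, had 0.0460 and 0.953 normalized CPM in normal air and 31.6 and 56.8 under hyperoxia (log2 change 6.57, edgeR adjusted p = 0.731), and was higher in Car4- cells too, with 31.7 and 26.1 normalized CPM in normal air and 334 and 315 under hyperoxia. Anxa2, a surface receptor for plasminogen, had 420.1 and 475 normalized CPM in normal air and 731 and 1079 under hyperoxia (log2 change 1.02, edgeR adjusted p = 0.731). For each of these genes the hyperoxia mice did not overlap the normal mice.

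Lyve1, a hyaluronan receptor best known from lymphatic vessels, had 312 and 906 normalized CPM in normal air and 1949 and 1573 under hyperoxia, without overlap (log2 change 1.53, SE 0.53, edgeR unadjusted p = 0.0125, adjusted p = 0.731). In CD31-gate cells its log2 change was 2.05, and the median cell had 53.9 and 88.1 CPM in normal air and 1417 and 1336 CPM under hyperoxia. The lymphatic transcription factor Prox1 had at most 0.595 normalized CPM in any of these mice, and Ccl21a had reads in 1 hyperoxia mouse alone. In Car4- cells Lyve1 had 808 and 699 normalized CPM in normal air and 3757 and 3506 under hyperoxia. In normal air it was 1088 and 1383 normalized CPM at P1 and 206 and 285 at P21, so the P7 hyperoxia mice lay above all others.

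Immune genes split. Of 14 MHC class I genes, which present peptides to T cells, 3 were above 0, with a median of -0.39, and in CD31-gate cells 1 of 14 was above 0. Without the normal female mouse 6 of 14 were above 0, with a median of -0.14. H2-K1 had 629 and 249 normalized CPM in normal air and 152 and 261 under hyperoxia (log2 change -1.09, edgeR adjusted p = 0.731), which overlapped, and H2-Q7 had 38 and 15.9 normalized CPM in normal air and 2.16 and 0.0934 under hyperoxia (log2 change -4.60, edgeR adjusted p = 0.731), which did not. Genes of the H2-Q group have near-identical copies, so their reads are uncertain. Of 14 interferon-stimulated genes 7 were above 0. Bst2, the antiviral protein tetherin, had 133 and 226 normalized CPM in normal air and 306 and 640.4 under hyperoxia (log2 change 1.40, SE 0.61, edgeR unadjusted p = 0.0391, adjusted p = 0.731), with no overlap.

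Glycolysis genes gave 1 case in which the value changed without the cells of the other gate, which also came from another run. Ldha, lactate dehydrogenase A, had 545 and 1376 normalized CPM in normal air and 414 and 390.4 under hyperoxia (log2 change -1.26, SE 0.51, edgeR unadjusted p = 0.0284, adjusted p = 0.731), but 426 in the CD31-gate cells of the normal male mouse, and its log2 change there was -0.29. The 20 immediate early and dissociation genes, which respond to tissue handling, had a median of -0.27 and none with an unadjusted edgeR p under 0.05.

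Markers of immune and mesenchymal cells were low, while some markers of other cells were not. The 12 immune markers summed to between 0 and 24 normalized CPM, with Cd3e and Tyrobp at 0 in all 4 mice. The 12 mesenchymal markers summed to 38.5 and 6.35 in normal air and 3.94 and 23.6 under hyperoxia, so the normal male mouse, with 6 mesench-gate cells, had a lower sum than the normal female mouse. The 12 epithelial markers summed to 62.6 and 142, and 189.8 and 342, in the same order. Of this, Ager, a receptor abundant in flat alveolar epithelium, had 6.95 and 13.7 normalized CPM in normal air and 135 and 147 under hyperoxia (log2 change 3.78, edgeR adjusted p = 0.731), while Epcam and Cdh1 stayed at or under 1.68. Red cell and platelet markers summed to 420.4 in the male hyperoxia mouse and at most 16.5 in the others. The part of these transcripts in the results was not tested.

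The share of Car4+ cells did not separate the groups. They were 11.6% of 320 and 9% of 200 CD31-gate cells in normal air, and 7.17% of 265 and 14.6% of 254 under hyperoxia. Exact Clopper-Pearson 95% intervals ran from 4.37% to 11% in the female and from 10.5% to 19.5% in the male hyperoxia mouse, and cover counting error only. The hyperoxia mice thus lay on both sides of the normal ones. The mean difference was 0.587 percentage points (exact 2-sided permutation p = 1, where the smallest p of 2 against 2 mice is 0.333).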

How the data were processed

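The deposited table holds whole-number read counts per gene and cell, without molecular identifiers. Per the submitters' processing notes STAR 2.5.2b and HTSeq 0.10 were used, and the genome build is named there as GRCh38, a human build's name, although the samples are mouse. The build used for the mouse reads is therefore uncertain, and coordinates here come from GENCODE M21 and RefSeq on GRCm38. Class labels are the authors' deposited ones, and how they were made is not given in the sources used here. No doublet caller was run, and columns left unmapped numbered 0.

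Counts were summed per mouse over the Car4+ cells and fitted in edgeR 4.0.16 (R 4.3.3; TMM, filterByExpr, quasi-likelihood F test, Benjamini-Hochberg adjustment over all genes tested) with the P1, P7 and P21 mice, contrasting P7 hyperoxia with P7 normal. The difference from Car4- capillaries (Early and Late together) was an interaction term with mouse as a term. It was also fitted with Early Car4- cells alone as an alternative. DESeq2 1.42.0, limma 3.58.1 on log2 of the mean CPM plus 1, RLE scaling, no filter, CD31-gate cells, thinning to 50000 reads, sex as a block, P7 mice alone and leaving out each mouse were alternatives. Printed CPM use TMM-scaled library sizes, a choice made after values were seen, with plain CPM as an alternative added then. The scaling was computed separately for all Car4+ cells, for CD31-gate Car4+ cells and for Car4- cells. CPM of single cells are on the plain read total. The procedure was tested on simulated data.

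Beside genes of the 28 lists, the naming rule took up to 10 genes per direction with the smallest unadjusted p among those without overlap, with at least 50 CPM in both mice of the higher group, reads in at least 25% of its cells and the same direction in the male pair within 1 run, and up to 5 per direction for the difference between classes. The members and lists were chosen with earlier results of these data known. With 2 mice a group, p-values measure only the spread between the few mice of the fit. In the main edgeR fit these include the P1 and P21 mice, and the spread is moderated over all genes tested. Reads without molecular identifiers are not independent molecules. Strand and multiple mapping in the counting are not given in the sources used here, so near-identical copies and antisense genes are uncertain.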

Additional observations from a re-analysis of the deposited data

How the results depend on the processing

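The count of called genes depended on the tool. For hyperoxia in Car4+ cells it was 0 with edgeR, limma on the mean CPM over cells, RLE scaling, CD31-gate cells, thinned cells and P7 mice alone, 265 with DESeq2 and 27 with no filter, and ran from 0 to 14 when each mouse was left out (10 without the P7 normal female, 12 without the P21 female and 14 without the P21 male mouse). For the difference between classes it was 243 with DESeq2, 3 with no filter and 31 with thinned cells, and ran from 0 to 5 when each mouse was left out (5 without the P7 normal female mouse). For that difference the count was 0 in CD31-gate cells and with Early Car4- cells alone. With sex as a replicate block 0 genes were called for hyperoxia in Car4+ cells, and 602 had an unadjusted p under 0.05. Female and male mice of different groups are different animals, so this block is no pairing. Without the P7 normal female mouse the median log2 change of all genes was 0.34, and without the male hyperoxia mouse -0.24. Cyp4b1 changed sign, to 0.28 with limma, 0.042 with no filter, 0.34 in CD31-gate cells and 0.22 with thinned cells, and ran from -0.12 to 0.19 when each mouse was left out. Mdm2 ran from -0.22 to 1.92 in the same way, below 0 without the normal male mouse. Gstm1 changed sign, to 0.40 in CD31-gate cells, and ran from -2.37 to 0.18 when each mouse was left out. Of 960 values of tabulated genes under alternatives, 950 kept the reported direction, and of 448 list medians 319 moved by less than the spread between sex pairs. The genes of the naming rule were taken for mice that do not overlap, and most alternatives reuse the same P7 reads. The count of kept directions was therefore largely fixed in advance. The cause of the differences between alternatives was not tested. Genes read in few cells are limited by the 19 to 42 cells per mouse.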

Other observations

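Further list genes separated the mice without being called by edgeR. Among antioxidant enzymes, Sod2, the mitochondrial superoxide dismutase, had 126 and 409 normalized CPM in normal air and 92.8 and 103 under hyperoxia, and Cat, which encodes catalase, had 129 and 161 normalized CPM in normal air and 126 and 54.2 under hyperoxia. Both were lower in both hyperoxia mice, though Cat separated only narrowly, at 126 against 129. Prdx6, a peroxiredoxin, was higher, with 252 and 141 normalized CPM in normal air and 434 and 271 under hyperoxia. Of the 17 other antioxidant genes tested, 3 were lower and 4 higher without overlap, beside 16% of all genes in each direction. On plain CPM without TMM 1 was lower and 4 were higher. Mcl1, a survival protein, was lower, with 134 and 169.5 normalized CPM in normal air and 112 and 123 under hyperoxia.

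The remaining lists are given by their counts. Of 12 cell cycle inhibitors and G1 cyclins, 7 were above 0, with a median of 0.17. Of 9 leukocyte adhesion and chemokine genes, 3 were above 0. Of 13 hypoxia and glycolysis genes 10 were, with a median of 0.60 that was 0.36 without the female hyperoxia and 1.25 without the normal female mouse. In CD31-gate cells 8 of 12 of these were above 0, with a median of 0.31. In the male pair within 1 run only 3 of 9 were above 0, with a median log2 ratio of -0.07. Of 9 arterial markers 7 and of 5 venous markers 1 were above 0, at summed levels of 253 and 358 normalized CPM in normal air and 292 and 366 under hyperoxia for the arterial list.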
